A study of Mus musculus with 6 samples.

Results

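The data described here are the hippocampal mRNA levels of 10 early-response regulators, Klf2, Klf4, Klf6, Klf10, Ier2, Ier5, Btg2, Tiparp, Maff and Csrnp1, in mice given saline or methamphetamine (MA). The genes were taken by symbol as early-response genes that lie outside the Fos, Egr and Nr4a families, and all 10 were found among the 16060 rows of the table and among the 13321 genes tested. The strain was C57BL/6 and the tissue hippocampus in both groups, adult males were used, and 1 library was made per mouse. The 3 mice of the control group received intraperitoneal saline. The 3 mice of the MA group received MA at 5 mg/kg in week 1, 10 mg/kg in week 2 and 15 mg/kg in week 3. Anxiety-like behavior was then scored in an open field and an elevated plus maze, and the animals were killed right after these tests, so that exposure to the tests preceded RNA collection in both groups. The dose reached the whole animal and the tissue was not sorted by cell type, and in such bulk RNA fewer cells of a type and less RNA per cell cannot be told apart.

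Early-response genes are transcribed within minutes of a stimulus without new protein synthesis, through factors such as SRF, CREB and MEF2 that are already bound or activated by phosphorylation, and their mRNAs are short-lived. Krüppel-like factors (KLFs) are zinc finger proteins that bind GC-rich and CACCC sequences. Klf2 and Klf4 are best known from endothelium, where blood flow induces them through the kinase ERK5 and MEF2, and Klf10 is induced by TGF-beta. Ier2 and Ier5 encode nuclear proteins of a shared family, of which IER5 acts on the heat shock factor HSF1. BTG2 is an antiproliferative protein that recruits the Ccr4-Not deadenylase to mRNAs, and TIPARP is an ADP-ribosyltransferase that is induced by, and represses, the aryl hydrocarbon receptor. MAFF is a small Maf protein without an activation domain of its own, and CSRNP1 is a cysteine- and serine-rich nuclear protein.

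The library MA 3 stood apart from the others. Its mean correlation with the other MA libraries across genes was 0.978, against 0.984 to 0.993 for the other 5 libraries with their own groups, and it listed 0 genes at exactly 0 where they listed 259 to 437. Without it, 2 of the 10 genes passed the adjusted threshold in place of 1, and the median log2 fold change was -0.47. Again 8 did not overlap between the groups, but leaving out a library cannot make separate groups overlap.

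In the libraries labelled MA, each of the 10 genes had a lower mean than in the control libraries, and for 8 of them every MA library lay below every control library. The 8 were Klf2, Klf4, Klf10, Ier2, Ier5, Btg2, Tiparp and Csrnp1, whereas the groups overlapped for Klf6 and Maff. Of all tested genes, 10.2% were lower in MA without overlap and 52.7% had a lower mean in MA. Only Klf10 fell by the adjusted threshold (limma, adjusted p = 0.0403), where 0.0976% of tested genes were called as lower in MA. At an unadjusted p under 0.05, 8 of the 10 were lower, against 5.46% of all tested genes. The median log2 fold change of the 10 genes was -0.48, and that of all tested genes was -0.01. The direction rests on the column names, and the design holds no targeted gene that could check them. These genes were proposed with earlier results of the same libraries known, so the counts describe them and are not independent evidence.

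Levels are given on the deposited log2 scale, whose offset is read as 1 because the lowest value is 0. Differences on it understate changes of low genes. Back-transformed levels are called RPKM, a measure scaled to gene length and to library size, because the deposited table is named so. A further normalization between libraries was applied that is not given in the sources used here, so comparisons between genes are approximate. Limma p-values set the difference between 3 mice and 3 mice against the spread within groups, which is moderated over all tested genes. A two-sided exact permutation test of 3 libraries against 3 cannot go below p = 0.1.

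**Figure D1:**
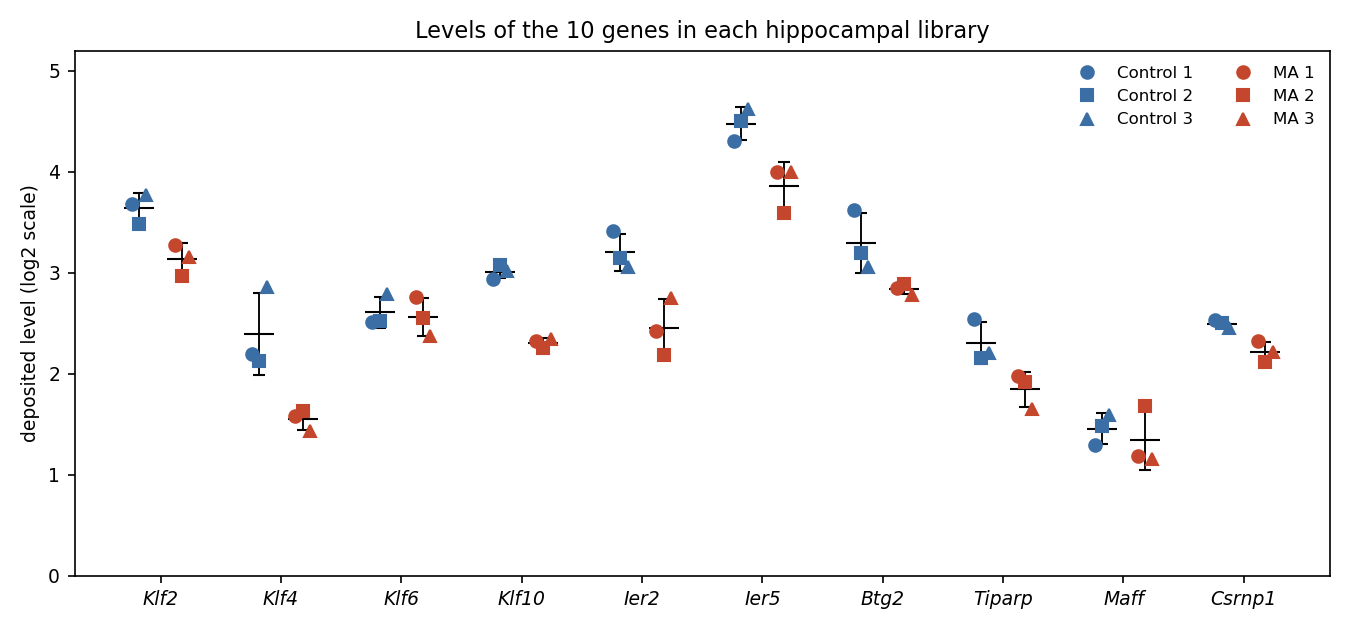
Deposited log2 level (y axis) of each of the 10 genes (x axis) in the 6 libraries, with blue symbols for the Control and red for the MA libraries; symbol shape gives the replicate number, and black bars show mean ± SD (n = 3). The red points lie below all blue points for 8 genes and overlap them for Klf6 and Maff.

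Among the KLFs, Klf10 (ENSMUSG00000037465; chromosome 15, 38291463 to 38300706, minus strand) showed the tightest groups. Its level was 2.94, 3.07 and 3.02 in Control 1, 2 and 3 and 2.33, 2.25 and 2.34 in MA 1, 2 and 3. The lowest control library stood 0.60 above the highest MA library, and the change was 10.8 times the larger of the group SDs. Its log2 fold change was -0.70 (standard error 0.092, 95% interval -0.92 to -0.49). Back-transformed, Klf10 went from 7.07 ± 0.364 RPKM with saline to 3.95 ± 0.170 RPKM with MA (mean ± SD, n = 3), which is 44.1% lower. The size was stable when each library was left out in turn, from -0.74 to -0.67, but the call was not. The adjusted p (limma) was 0.0274 without MA replicate 3 and between 0.1 and 0.22 without any of the other 5 libraries, and it was 0.0838 with no filter on low values.

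Klf4 (ENSMUSG00000003032; chromosome 4, 55527143 to 55532466, minus strand) had the largest difference of the 10 genes in the fit used here. Its level was 2.20, 2.12 and 2.86 in the control libraries and 1.59, 1.63 and 1.43 in the MA libraries. Control 3 stood high, and without it the log2 fold change was -0.61 in place of -0.84 (SE 0.20, limma adjusted p = 0.219). The log2 fold change was -1.10 with a pseudocount of 0.1 in place of 1. Back-transformed, Klf4 went from 4.40 ± 1.61 RPKM with saline to 1.93 ± 0.206 RPKM with MA (mean ± SD, n = 3).

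Klf2 (ENSMUSG00000055148; chromosome 8, 72319033 to 72321656, plus strand) was 3.68, 3.49 and 3.77 in the control and 3.28, 2.97 and 3.16 in the MA libraries. The groups were separated by 0.21, and the group SDs were 0.14 and 0.16. Its log2 fold change was -0.51 (standard error 0.12, 95% interval -0.79 to -0.23, limma adjusted p = 0.219), and it was 32.3% lower as RPKM. Control 3 held the highest Klf2, Klf4 and Klf6 of the control group.

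Klf6 (ENSMUSG00000000078; chromosome 13, 5861482 to 5870394, plus strand), a ubiquitously expressed KLF, overlapped between the groups. Its level was 2.51, 2.52 and 2.79 in the control and 2.76, 2.55 and 2.38 in the MA libraries, with the highest values in Control 3 and MA 1. The log2 fold change was -0.05 with a 95% interval of -0.36 to 0.27 (limma adjusted p = 0.941), and it was positive, at 0.043 and 0.046, without Control replicate 3 or MA replicate 3. The point estimates of Klf4, Ier2, Klf10, Ier5, Klf2, Tiparp and Btg2 lie outside that interval. This leaves out their own error and is not a test of a difference from Klf6. Of their 95% intervals, only those of Klf4 and Klf10 lie wholly below that of Klf6.

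Each gene was also compared with Klf6 within libraries, as the level of the gene minus that of Klf6. Earlier results of these libraries were known when Klf6 was taken as the reference. It had the smallest change of the member genes (log2 fold change -0.05), so subtracting it shifts the other changes little. For Klf10, MA minus Control was -0.70 before and -0.66 after subtraction. The differences from Klf6 thus describe the same changes again and are not independent evidence. For Klf10 this difference was 0.43, 0.55 and 0.23 in the control libraries and -0.43, -0.30 and -0.033 in the MA libraries. Klf10 thus stood above Klf6 in 3 of 3 control libraries and below it in 3 of 3 MA libraries. Of the 9 such differences, those of Klf2, Klf4, Klf10, Ier5 and Tiparp did not overlap between the groups (exact permutation test, two-sided, p = 0.1 each, 0.18 after Benjamini-Hochberg adjustment over the 9). The differences of Ier2, Csrnp1, Btg2 and Maff from Klf6 overlapped, with exact permutation p-values of 0.2, 0.2, 0.3 and 0.7.

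**Figure D2:**
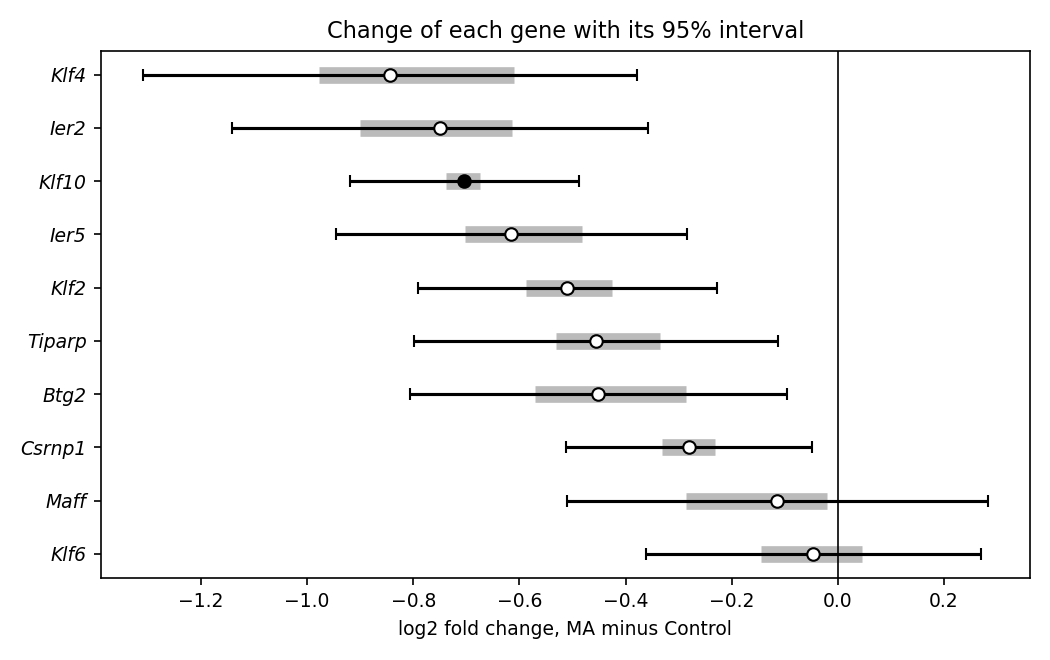
Log2 fold change, MA minus Control (x axis), of each gene (y axis); circles and whiskers give the estimate and its 95% interval from limma (n = 3 against 3), a filled circle marks an adjusted p under 0.05, and grey bands span the values with each library left out in turn. Klf10 alone is filled, and only the intervals of Klf6 and Maff include 0.

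Ier5 (ENSMUSG00000056708; chromosome 1, 155096361 to 155099636, minus strand), an intronless gene in the annotation, was the most abundant of the 10. It was 4.30, 4.51 and 4.62 in the control and 3.99, 3.59 and 3.997 in the MA libraries, or 21.4 ± 2.46 against 13.7 ± 2.24 as RPKM (SD, n = 3 each). MA 2 was the lowest, and the groups were 0.31 apart. MA minus Control came to -0.62 ± 0.14 (SE, limma adjusted p = 0.211).

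Ier2 (ENSMUSG00000053560; chromosome 8, 84661331 to 84662852, minus strand), also intronless, was 3.41, 3.15 and 3.05 in the control and 2.43, 2.18 and 2.75 in the MA libraries. MA 3 stood nearest to the controls, and the MA group had the larger SD, 0.29 against 0.19. The MA minus Control difference was -0.75 ± 0.17 (SE, limma adjusted p = 0.203). Without MA replicate 3 the log2 fold change was -0.90 and passed the threshold (limma adjusted p = 0.0375).

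Btg2 (ENSMUSG00000020423; chromosome 1, 134075170 to 134079120, minus strand) was 3.62, 3.20 and 3.05 in the control and 2.85, 2.89 and 2.78 in the MA libraries. The MA libraries were close together (SD 0.055), while Control 1 stood high (SD of the control libraries 0.30). MA minus Control came to -0.45 ± 0.15 (SE, limma adjusted p = 0.370), and without Control replicate 1 it was -0.29, smaller by over 1.5 times. Control 1 also held the highest Ier2, Tiparp and Csrnp1.

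Tiparp (ENSMUSG00000034640; chromosome 3, 65528410 to 65555518, plus strand) was 2.55, 2.16 and 2.21 in the control and 1.98, 1.92 and 1.65 in the MA libraries. The MA minus Control difference was -0.46 ± 0.15 (SE, limma adjusted p = 0.350). A processed pseudogene, 4931440P22Rik, overlaps it on the other strand, and whether counting used strand is not given in the sources used here, so its level is uncertain.

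Csrnp1 (ENSMUSG00000032515; chromosome 9, 119971163 to 119984658, minus strand) was 2.53, 2.51 and 2.45 in the control and 2.32, 2.12 and 2.21 in the MA libraries. The difference was the smallest of the 8 without overlap, at -0.28 (SE 0.099, limma adjusted p = 0.398). The annotation places Cx3cr1, a microglial receptor gene, across it on the same strand and 1700019L13Rik on the other, so reads could be shared between them. Cx3cr1 itself was between 3.49 and 3.56 in the control and between 3.37 and 3.52 in the MA libraries, which overlapped.

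Maff (ENSMUSG00000042622; chromosome 15, 79346621 to 79359076, plus strand) was the least abundant, at 1.30, 1.48 and 1.59 in the control and 1.19, 1.69 and 1.15 in the MA libraries. MA 2 was the highest of all 6 libraries while MA 1 and MA 3 were the lowest. The log2 fold change was -0.11 with a 95% interval of -0.51 to 0.28 (limma adjusted p = 0.871), and with each library left out in turn it ranged from -0.29 without MA replicate 2 to -0.020 without MA replicate 3. It was also smaller by over 1.5 times without MA replicate 1 (-0.037) or Control replicate 3 (-0.047), and larger by that much without Control replicate 1 (-0.19).

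Gene positions were looked up by Ensembl identifier in the GENCODE M21 annotation (GRCm38), where all 10 genes are protein-coding.

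In the control libraries the levels ran in the order Ier5, Klf2, Btg2, Ier2, Klf10, Klf6, Csrnp1, Klf4, Tiparp and Maff. Ier5 lay at the 72.9th percentile of tested genes and Maff at the 15.8th. The ranges over the 3 control libraries of neighbours in this order did not overlap for Ier5 and Klf2, for Klf10 and Klf6, and for Tiparp and Maff, and they overlapped for the other 6 pairs. Averaged over the 10 genes, the difference from the control mean was -0.42, -0.51 and -0.50 in MA 1, 2 and 3, and between -0.068 and 0.052 in the control libraries. MA 3 was below the lowest control for 10 of 10 genes, MA 1 for 9 and MA 2 for 8.

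The promoter sequences of 3 genes are shown for the motifs of early-response induction that they hold, with Btg2, whose groups did not overlap, beside Maff, whose groups did; the difference between these genes was not tested. RefSeq windows were found for 8 of the 10 genes, 13 windows in all since Csrnp1 has 4 and Maff 3. Klf10 and Ier2 had none. Each window was read over the 250 bases before the annotated start, 5′ to 3′ on the strand of the gene, in build GRCm38.p6. Below, capitals mark a MEF2 motif in Klf2 (chr8:72318812-72319061, plus strand) and a full cAMP response element, TGACGTCA, in Btg2 (chr1:134079156-134079405, minus strand) and in the second of the Maff windows (chr15:79347270-79347519, plus strand).
Klf2: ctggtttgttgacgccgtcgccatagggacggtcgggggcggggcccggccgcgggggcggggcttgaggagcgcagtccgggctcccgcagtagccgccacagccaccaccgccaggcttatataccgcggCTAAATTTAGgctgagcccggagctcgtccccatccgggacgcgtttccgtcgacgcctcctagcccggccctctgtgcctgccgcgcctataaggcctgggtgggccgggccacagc
Btg2: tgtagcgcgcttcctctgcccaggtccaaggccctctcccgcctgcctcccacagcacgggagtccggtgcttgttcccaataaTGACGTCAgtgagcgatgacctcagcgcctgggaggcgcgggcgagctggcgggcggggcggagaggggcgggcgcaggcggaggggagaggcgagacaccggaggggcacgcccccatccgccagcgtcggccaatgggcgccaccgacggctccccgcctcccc
Maff: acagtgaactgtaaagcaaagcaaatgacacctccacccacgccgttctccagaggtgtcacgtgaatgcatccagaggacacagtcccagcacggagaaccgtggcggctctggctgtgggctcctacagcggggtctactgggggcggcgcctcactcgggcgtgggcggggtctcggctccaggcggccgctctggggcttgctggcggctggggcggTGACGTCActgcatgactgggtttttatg

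The full element, to which CREB binds, begins 166 bases before the start of Btg2 and 29 bases before that of Maff, and 1.55% of all 32851 windows hold it. The MEF2 motif of Klf2 begins 118 bases before the start, and 0.508% of all windows hold one. The shorter element TGACG, on either strand and counted also within full elements, was present in 9 of the 13 windows and in 17.8% of all windows. These 9 came from 5 genes: Klf2, Klf4, Btg2, Csrnp1 with every window and Maff with all but 1. A GC box (GGGCGG, either strand), a sequence that KLF and Sp proteins bind, was present in 8 of the 13 windows, from 7 genes, and in 32.7% of all windows. CACCC, on either strand, was present in 7 of the 13 windows, from Klf2, Tiparp, Csrnp1 and Maff, and in 52% of all windows. Windows of 1 gene lie near each other and are not independent. A CArG box, the SRF motif, was in none of the 13 windows and in 1.47% of all. These matches describe letters in the window and show no binding.

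The other genes of these families and pathways come from lists written from general knowledge. None of the genes tested in the following 6 lists passed the adjusted threshold (limma), for which 0.263% of tested genes were called in either direction. Among the other Klf and Sp factors, 7 of 15 tested genes had a lower and 8 a higher mean in MA, with a median of 0.05. At an unadjusted p under 0.05, 1 was lower and 1 higher, where the background for higher genes is 4.99%. Klf16 was 4.79, 4.74 and 4.78 in the control and 4.24, 4.32 and 4.60 in the MA libraries (log2 fold change -0.38, limma adjusted p = 0.296). Klf15, a glucocorticoid-induced KLF, was 3.32, 3.50 and 3.47 in the control and 3.71, 3.58 and 3.66 in the MA libraries, the opposite order (log2 fold change 0.22, limma adjusted p = 0.473). Klf1, Klf14, Sp5, Sp7 and Sp8 were under the filter on low values.

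Of the relatives of the other 6 genes (Ier3, Ier3ip1, Ier5l, Btg1, Btg3, the Tob genes, the other Maf and Csrnp genes and related Parp genes), 13 of 18 had a lower mean in MA, with a median of -0.10, and 1 was lower at an unadjusted p under 0.05. That gene was Btg1, a close homologue of Btg2, at 3.40, 3.30 and 3.41 in the control and 2.85, 2.90 and 3.29 in the MA libraries. Its log2 fold change was -0.35 (limma adjusted p = 0.427). MA 3 stood apart from MA 1 and MA 2 here as it did for Klf16. Parp11 was the higher gene with the smallest p, at 0.28 with overlapping groups (limma adjusted p = 0.672).

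For the Ccr4-Not deadenylase, the Pan2-Pan3 complex, Pabpc1 and the BTG-binding methyltransferase Prmt1, 9 of 15 had a lower mean and the median was -0.07. At an unadjusted p under 0.05, 2 were lower and 0 higher. Cnot6, a catalytic subunit, was 3.18, 3.11 and 3.31 in the control and 3.02, 2.89 and 2.70 in the MA libraries (log2 fold change -0.33, limma adjusted p = 0.393). Cnot10 was 0.12 higher (limma adjusted p = 0.698).

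In the upstream list of Srf, ternary complex factors, myocardin-related factors, Mef2 factors, ERK and Creb genes, 11 of 24 had a lower mean and the median was 0.02. At an unadjusted p under 0.05, 2 were lower and 0 higher. Creb1, which encodes CREB, was 2.78, 2.69 and 2.99 in the control and 2.58, 2.29 and 2.26 in the MA libraries (log2 fold change -0.44, limma adjusted p = 0.323). Srf, the other gene of the pair, had a log2 fold change of -0.27 (limma adjusted p = 0.350) and is named after its values were seen. Rps6ka1, a kinase downstream of ERK, was 0.15 higher (limma adjusted p = 0.648).

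In the aryl hydrocarbon receptor list, to which Tiparp belongs as a target, 5 of 9 tested genes had a lower mean, the median was -0.04 and 1 was lower at an unadjusted p under 0.05. That gene was Ptges3, a co-chaperone of the receptor, with overlapping groups and a log2 fold change of -0.28 (limma adjusted p = 0.440). Cyp1a1, the best known target of the receptor, was under the filter and listed at 0 in at least 1 library.

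**Figure D3:**
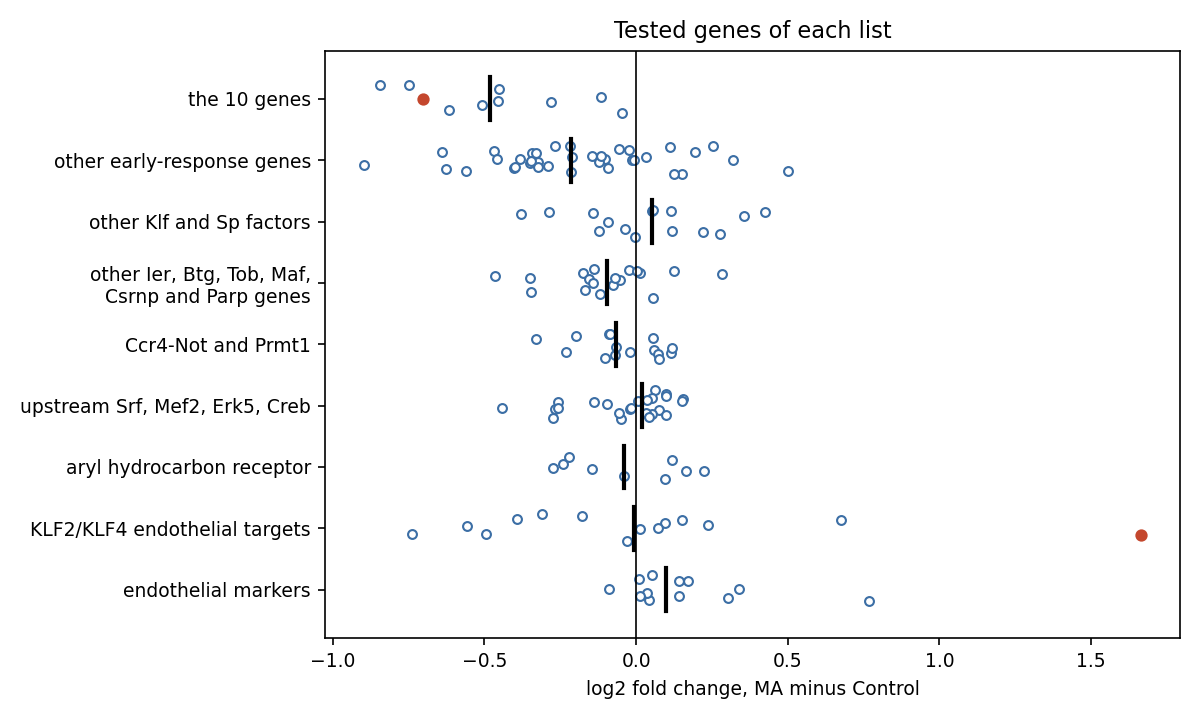
Log2 fold change, MA minus Control (x axis), of every tested gene in each list (y axis); open circles did not pass an adjusted p under 0.05 (limma, n = 3 against 3), filled red circles did, and black bars are list medians. The 10 genes have a median of -0.48, the other early-response genes -0.21 and the endothelial markers 0.10. The remaining lists lie between -0.10 and 0.05.

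Other early-response genes lay lower on balance. Their list includes Klf9 and Ier3, which are also counted in the family lists above. Of 37 tested, 29 had a lower mean in MA, 14 were lower without overlap and 14 were lower at an unadjusted p under 0.05, with a median of -0.21. The shares of all tested genes were 52.7%, 10.2% and 5.46% in the same order. In the other direction 1 gene did not overlap and 1 was at an unadjusted p under 0.05, against 7.32% of tested genes that were higher without overlap. Dnajb5, a heat-inducible co-chaperone, was 6.77, 6.50 and 6.56 in the control and 5.94, 6.06 and 5.91 in the MA libraries (log2 fold change -0.64, standard error 0.096, limma adjusted p = 0.0628). The opposite gene was Zfp36, which encodes an mRNA-decay factor and was 1.24, 1.32 and 1.35 in the control and 1.46, 1.60 and 1.61 in the MA libraries (log2 fold change 0.25, limma adjusted p = 0.458). Homer1, whose short form is induced by activity, had a log2 fold change of -0.90 (limma adjusted p = 0.183) and is named after its values were seen. Pim1, Ptgs2, Gadd45g and Myc, also named after their values were seen, had log2 fold changes of -0.0071, -0.012, -0.025 and -0.055 with overlapping groups.

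Of the known endothelial targets of KLF2 and KLF4, 7 of 14 tested genes had a lower mean in MA, with a median of -0.01. The list does not separate induced from repressed targets, so its counts and median cannot be read as a direction of regulation. At an unadjusted p under 0.05, 5 were lower and 2 higher, against 5.46% and 4.99% of all tested genes. Of the list 1 gene, Aqp1, rose by the adjusted threshold (log2 fold change 1.66, standard error 0.19, limma adjusted p = 0.0315). Aqp1 was 0.059, 0.38 and 0.63 in the control and 1.79, 1.99 and 2.28 in the MA libraries, so its control level lay near or under the filter on low values. It encodes a water channel that is also a main product of choroid plexus epithelium, and its call was lost with a pseudocount of 0.1 or 0.01, with no filter and without any library other than MA replicate 3. Nos3, the endothelial nitric oxide synthase, was 2.31, 2.22 and 2.31 in the control and 1.83, 1.74 and 1.79 in the MA libraries (log2 fold change -0.49, standard error 0.094, limma adjusted p = 0.138). Thbd, which encodes thrombomodulin, was 2.60, 2.49 and 2.60 in the control and 2.15, 2.13 and 1.74 in the MA libraries (log2 fold change -0.56, limma adjusted p = 0.229) and is named after its values were seen. In all, 4 genes of the list were lower without overlap (Nos3, Thbd, Dusp5 and Slc9a3r2) and 3 were higher without overlap (Aqp1, Plvap and Vcam1). Over all tested genes these shares were 10.2% and 7.32%. Dusp5, Slc9a3r2, Plvap and Vcam1 are also named after their values were seen. Dusp5, an ERK phosphatase gene, had a log2 fold change of -0.74 and Plvap, a gene of fenestrated endothelium, of 0.68 (limma adjusted p = 0.147 and 0.335).

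Most endothelial identity genes had a higher mean in MA, though not in every MA library. Of 12 endothelial markers, 11 had a higher mean in MA, 0 passed the adjusted threshold (limma), and at an unadjusted p under 0.05, 0 were lower and 2 higher. Their summed RPKM was 222 to 241 in the control and 249 to 282 in the MA libraries. Averaged over the 12, the difference from the control mean was 0.40, 0.20 and -0.12 in MA 1, 2 and 3. Cldn5, a tight junction gene of brain endothelium, was 5.05, 5.08 and 5.003 in the control and 5.39, 5.29 and 5.38 in the MA libraries. Esam alone of the 12 had a lower mean, with a log2 fold change of -0.09 with overlapping groups.

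Marker genes of other tissues differed between the groups in the same libraries. Of 10 choroid plexus markers, Slc4a5 and Prlr were under the filter value in every control library. They were tested only because of their MA levels, and they are left out of the counts unless stated. The other 8 were higher in MA without overlap, and Clic6, Kl and Folr1 passed the adjusted threshold, where 0.165% of tested genes were called as higher in MA. The summed RPKM of the 10 was 71.3 to 425 in the control and 1789 to 5108 in the MA libraries. These sums were mainly Ttr, named after its values were seen. Its log2 level was 5.87 or more in every library, and no other marker of the list exceeded 4.30. Ttr had a log2 fold change of 4.09, against a median of 1.57 over all 10. In MA 3, Ttr held the highest value that all 6 libraries share, so the upper MA sum may depend on the normalization between libraries. The 5 red blood cell markers were also higher without overlap, with sums of 1599 to 2024 and 3319 to 4378, and Hba-a1, Hba-a2 and Hbb-bs passed the threshold, although reads of these near-identical globin copies may be split between them. With each library left out in turn, from 0 to 5 red blood cell markers passed. For all 10 choroid plexus markers the count ran from 0 to 8, with Slc4a5 and Prlr included. The highest counts were those without MA replicate 3. Of 8 thalamic markers, 8 had a higher mean, and the sums were 40.6 to 65.5 and 63.1 to 129. Leptomeningeal markers summed to 41.2 to 50.5 and 84.1 to 110, with 7 of 8 higher in mean and a median log2 fold change of 0.11. Only Igf2 and Dcn, named after their values were seen, were higher without overlap (log2 fold change 1.26 and 1.30). The other leptomeningeal markers overlapped between the groups. The sums of pericyte and smooth muscle, microglial, astrocyte, oligodendrocyte and hippocampal neuron markers overlapped between the groups, at 97.5 to 109 against 104 to 112, 247 to 267 against 255 to 265, 1018 to 1096 against 892 to 1203, 3056 to 3387 against 2844 to 3549 and 2035 to 2118 against 1787 to 2253. By mean, 9 of 10 hippocampal neuron, 7 of 8 astrocyte and 7 of 8 oligodendrocyte markers were lower in MA. So were 5 of 10 microglial and 3 of 9 pericyte and smooth muscle markers, and 52.7% of all tested genes. Neurod6 and Wfs1, named after their values were seen, were lower without overlap (log2 fold change -0.43 and -0.30, limma adjusted p = 0.290 and 0.413). No marker was listed at 0 in any library, and the hippocampal markers Prox1, Wfs1 and Neurod6 were present in all 6. The part of these other tissues in the differences of the 10 genes was not tested.

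**Figure D4:**
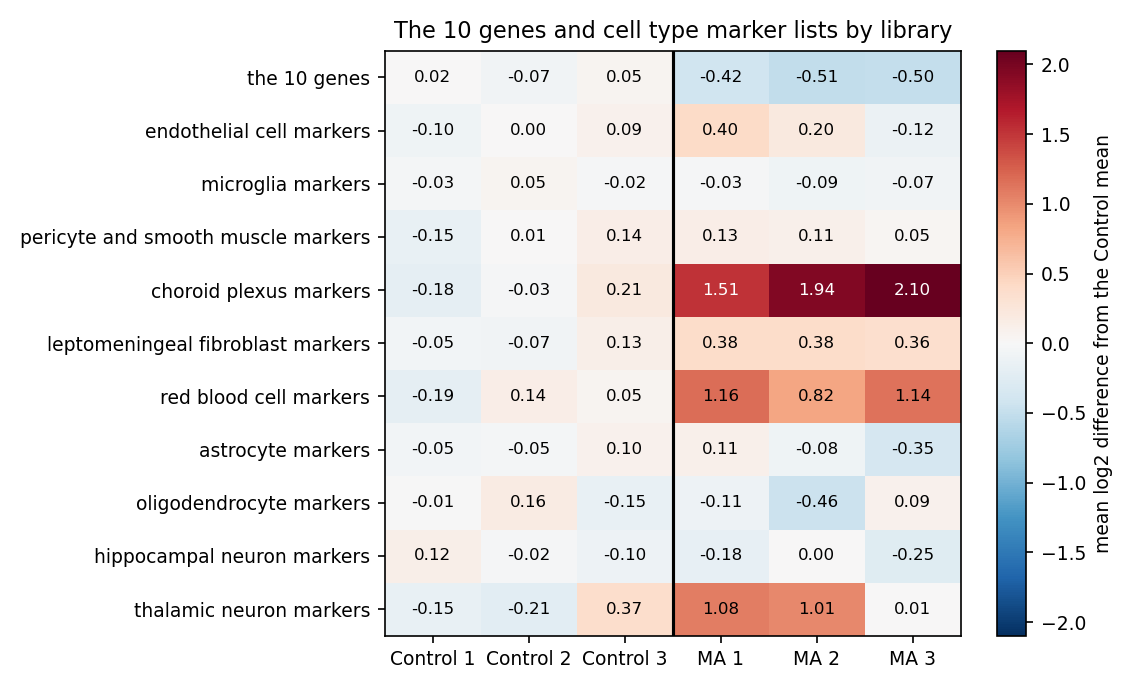
Mean log2 difference from the Control mean, over the 10 genes (top row) and over each marker list (other rows), in each library (columns); red is higher and blue lower, and each value is printed in its cell. The 10 genes are lower in all 3 MA libraries, and the choroid plexus and red blood cell lists are higher in all 3.

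Among genes outside all these lists, the 5 whose profile over the 6 libraries was most like the mean profile of the 10 genes were Ptma, Ugp2, Snap29, Pou3f3 and Carnmt1. Likeness was the root mean square difference of centred log2 levels, which was 0.029 for Ptma and 0.061 for Carnmt1, while Klf2, the closest of the 10 genes, was at 0.084. Ptma, which encodes prothymosin alpha, was 9.14, 8.99 and 9.11 in the control and 8.65, 8.59 and 8.63 in the MA libraries. The log2 fold changes of the 5 genes lay between -0.47 and -0.39. These genes were picked for this profile, so their direction and size follow from the choice and are given as a description.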

How the data were processed

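Hippocampal RNA of 3 control and 3 MA mice was sequenced, and the authors deposited 1 table of 16060 genes named as RPKM. Per the paper, reads were aligned with Hisat2, counted with featureCounts and scaled by gene length. The labels name another library kit than the paper, and the submitters' processing notes name Bowtie 0.12.2 with mm8 and mm9. The deposited values are on a log2 scale, as read from their range, and all 6 libraries share 1 highest value, so a normalization between libraries was applied that is not given in the sources used here. Either step can compress differences. The read depth is unknown, so counting error could not be computed. The 6 value columns were matched to mice by name, and directions rest on those names.

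The design assumed log2 values or log2(value + 1), and the deposited values were used. The 13321 genes that reached 0.5 after back-transformation in 3 or more of the 6 libraries were tested with limma 3.58.1 in R 4.3.3 (lmFit, eBayes with trend, no covariate, Benjamini-Hochberg over all tested genes, threshold 0.05). The script was tested on simulated data. DESeq2, used by the authors, needs counts. Named genes were the 10 members, genes of each list past the threshold or, with none, the smallest p in each direction (marker lists are given mainly as counts and sums), and the 5 most alike profiles. A gene that this rule names is not reported here. Members and lists were chosen with earlier results of these data known. Alternatives were 2 pseudocounts, no filter, a minimum mean of 5, median centring, quantile normalization, no trend, sample quality weights, a replicate block and each library left out. Promoter windows are from RefSeq (GRCm38.p6).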

Additional observations from a re-analysis of the deposited data

How the results depend on the processing

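Of the 10 genes, the number past the adjusted threshold was 1, and it was 0 under the replicate block or with no filter, 4 with sample quality weights (Klf2, Klf10, Ier2 and Ier5), and from 0 to 2 when single libraries were left out, the 2 being Klf10 and Ier2 without MA replicate 3. The weights gave MA replicate 3 a weight of 0.194, the lowest of the 6. Same-numbered libraries did not deviate together (r = -0.197, -0.242 and -0.337 across genes, which are not independent replicates). Pairing by number was thus not seen, though these correlations cannot exclude it. With the block, Klf10 had a limma adjusted p of 0.262. The count of 8 genes without overlap was 8 or 9 in the other settings that gave it, except for 5 of the 6 genes left by a minimum mean of 5. For a gene that was kept, only median centring and quantile normalization could have lowered this count. Pseudocounts and filters keep the order of the libraries, and leaving out a library cannot make separate groups overlap. The median log2 fold change was -0.57 and -0.58 with pseudocounts of 0.1 and 0.01, -0.56 with the minimum mean of 5, where 6 genes remained, and from -0.56 to -0.41 with each library left out. Of the 129 tested genes in the other family and pathway lists, 1 passed. The number was 0 with either pseudocount, no filter or the minimum mean of 5, 18 with sample quality weights, and from 0 to 7 with each library left out. Klf6 ranged from -0.14 to 0.046 with each library left out, and Maff was 0.060 with sample quality weights. The 8 other genes kept a negative log2 fold change in every setting run. Over all tested genes 35 passed, against 3 with no filter, 20 with the minimum mean of 5, 586 with sample quality weights, 15 with the replicate block and from 0 to 257 with single libraries left out. The cause of these shifts was not tested. The unknown depth limits what can be said of Maff, Tiparp and Klf4, the lowest of the 10 genes.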
